A study of Mus musculus with 9 samples.

Results

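Open chromatin was described at 9 tumour suppressor loci recurrently altered in osteosarcoma, a bone cancer: Rb1, Recql4, Brca2, Tsc1, Tsc2, Apc, Wwox, Dlg2 and Lsamp. Each locus was the gene span of the gene table with 50 kb added on either side, here called its window. The 9 genes were chosen by name among 21887 protein-coding genes, and their windows held 221 of the 124230 regions obtained by merging the peaks of all libraries. The libraries were bulk ATAC-seq, which marks accessible DNA by cuts of the transposase Tn5, from cell lines grown out of primary mouse osteosarcomas and kept in DMEM with serum. The R172H line had the genotype p53R172H/-, the R245W line p53R245W/- and the null line p53-/-, so the first 2 lines carried a mutant p53 allele and no line had a wild-type one. Each genotype was 1 line with 3 libraries, 9 libraries in all, so genotype and line cannot be told apart. Separate cultures are not named in the labels, and p-values measure only the spread between these libraries, which may be technical.

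Tumour suppressor genes restrain growth or guard the genome, and cancers lose them by deletion, rearrangement, mutation or silencing. Rb1 holds the cell cycle, Recql4 and Brca2 act in DNA replication and repair, Tsc1 and Tsc2 restrain the growth kinase mTOR, and Apc restrains Wnt signalling. Wwox, Dlg2 and Lsamp are very long genes, and long genes are frequent sites of breaks in tumours. A peak list shows where DNA was open in a library. A missing peak can mean closed chromatin, deleted DNA or too few reads, and a list of peaks cannot tell these apart. In bulk libraries, fewer cells with an open region and less signal per cell cannot be told apart either.

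Promoter sequence was available in the RefSeq table of build GRCm38.p6 for 5 of the 9 genes, with 8 start sites. The 250 bases before a start site are printed 5′ to 3′ for the 3 promoters that were open in all 9 libraries and for the 1 that was open in the R245W line only. Open here means that a peak overlapped those bases or the 50 bases after the start site, which are not printed. At the Dlg2 start site the peak lay in the latter alone. One Lsamp promoter with no peak in any library is printed for contrast and was added after its values were seen. Capitals mark matches, on either strand, to 7 motifs. They were GCGCGAAA and GGCGGGAA, known for E2F factors, TGACGTCA, the cyclic AMP response element (CRE), CCGGAAG, known for ETS factors, GGGCGG, known for the factor SP1, CCAAT, known for the factor NFY, and TATAAA, the core of the so-called TATA box. No motif of this set is contained in another.
Brca2 promoter, chr5:150522371-150522620, plus strand, open in all 9 libraries: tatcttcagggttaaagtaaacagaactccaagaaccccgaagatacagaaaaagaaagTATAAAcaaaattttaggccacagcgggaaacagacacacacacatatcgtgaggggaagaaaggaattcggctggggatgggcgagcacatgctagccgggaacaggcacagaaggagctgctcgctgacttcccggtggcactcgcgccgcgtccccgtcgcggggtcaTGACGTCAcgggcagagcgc
Tsc1 promoter, chr2:28640983-28641232, plus strand, open in all 9 libraries: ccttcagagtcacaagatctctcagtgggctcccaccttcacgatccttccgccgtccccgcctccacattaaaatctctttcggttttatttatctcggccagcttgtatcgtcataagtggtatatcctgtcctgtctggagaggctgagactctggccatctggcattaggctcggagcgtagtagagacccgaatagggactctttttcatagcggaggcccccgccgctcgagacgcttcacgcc
Tsc2 promoter, chr17:24632628-24632877, minus strand, open in all 9 libraries: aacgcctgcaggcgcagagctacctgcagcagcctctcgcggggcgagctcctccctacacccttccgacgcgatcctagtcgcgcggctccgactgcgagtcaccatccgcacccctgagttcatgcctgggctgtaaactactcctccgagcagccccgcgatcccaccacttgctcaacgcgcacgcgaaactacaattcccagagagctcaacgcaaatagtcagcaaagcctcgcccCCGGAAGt
Dlg2 internal promoter, chr7:91090536-91090785, plus strand, open in 3 R245W libraries only: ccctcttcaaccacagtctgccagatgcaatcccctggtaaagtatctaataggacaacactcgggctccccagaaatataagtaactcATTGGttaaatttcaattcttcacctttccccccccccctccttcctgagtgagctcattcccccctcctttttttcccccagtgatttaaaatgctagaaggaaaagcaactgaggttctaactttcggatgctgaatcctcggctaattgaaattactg
Lsamp promoter, chr16:39984114-39984363, plus strand, open in no library: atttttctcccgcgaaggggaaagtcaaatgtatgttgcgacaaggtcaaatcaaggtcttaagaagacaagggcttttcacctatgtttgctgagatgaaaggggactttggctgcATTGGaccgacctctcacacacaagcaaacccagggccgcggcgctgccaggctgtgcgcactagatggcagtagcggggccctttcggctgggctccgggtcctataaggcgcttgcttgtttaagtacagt

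The 3 promoters open in every library were rich in CpG. The Brca2 promoter held 18 CpG, the Tsc1 promoter 16 and the Tsc2 promoter 24. Among 21263 promoters of protein-coding genes the median was 17 CpG in the 10948 (51.5%) with a peak in all 9 libraries, and 2 in the 7960 with a peak in none. The Dlg2 internal promoter held 3 CpG, and a peak in the R245W line only was found at 1.23% of promoters. The Lsamp promoter printed held 12 CpG and yet had no peak in any library. A second Lsamp start site and the other 2 Dlg2 start sites of the table, with 3, 1 and 2 CpG, also had none.

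Motif matches were few. The Brca2 promoter had 1 CRE match, found in 1.92% of promoters, and 1 TATA match, found in 11.6%. The Tsc2 promoter had 1 ETS match, found in 8.98%. The Dlg2 internal promoter and the Lsamp promoter had 1 NFY match each, a motif held by 35.4% of promoters. The Tsc1 promoter had none of the 7 motifs. No printed promoter held an E2F motif (0.362% and 2.47% of promoters) or the SP1 motif (42.6%). A match is a description of the letters only.

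The peak lists held 72840 to 74352 peaks in the R172H libraries, 75314 to 79424 in the R245W libraries and 65199 to 65942 in the null libraries. The lists give no read counts, so depth is unknown. At least 1 end of 8 of 10 osteoblast lineage marker genes, among them Runx2, Sp7, Alpl, Col1a1, Col1a2, Spp1 and Sparc, had a peak within 1000 bp in each of the 9 libraries. The late osteoblast genes Bglap and Ibsp had none in any library. Of 5 haematopoietic markers 2 to 3 were open, with Cd68 and Spi1 in all 9 libraries and Ptprc and Itgam in none, of 5 endothelial markers 1 to 2, of 5 epithelial markers 1 to 3 and of 5 skeletal muscle markers 2 to 3.

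Wwox was the 1 locus of the 9 whose number of peaks differed between the lines after adjustment. In the test, the variance of the 3 line means was compared with its value in each of the 280 ways to divide the 9 libraries by 3 (exact permutation, one-sided, Benjamini-Hochberg adjustment over 18349 windows). Such a p measures the spread of all 3 lines, not the difference between any pair of them. Over all windows 10.1% were called, so 1 of 9 is close to the background and is not a result about these loci as a group. The smallest possible p is 0.00357, and only windows at that value passed. A locus at which 1 line stands apart and the other lines have equal means cannot go below 0.0357, and so could not pass. At an unadjusted p under 0.05 there were 4 loci, Wwox, Dlg2, Lsamp and Brca2, below the share of all windows, 53%. With lists trimmed to the same length there were 8 of 9, above the share of all windows, 54.1%, so this reading turned on the list lengths. The number called turned on the scale: 4 of 9 passed with counts divided by the length of the list (44.8% of all windows) and 6 of 9 by kb covered (76.6%), Wwox and Brca2 among them in both. The difference between the highest and the lowest line mean had a median of 3.0 peaks over the 9 loci and 2.33 peaks over all windows tested.

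**Figure D1:**
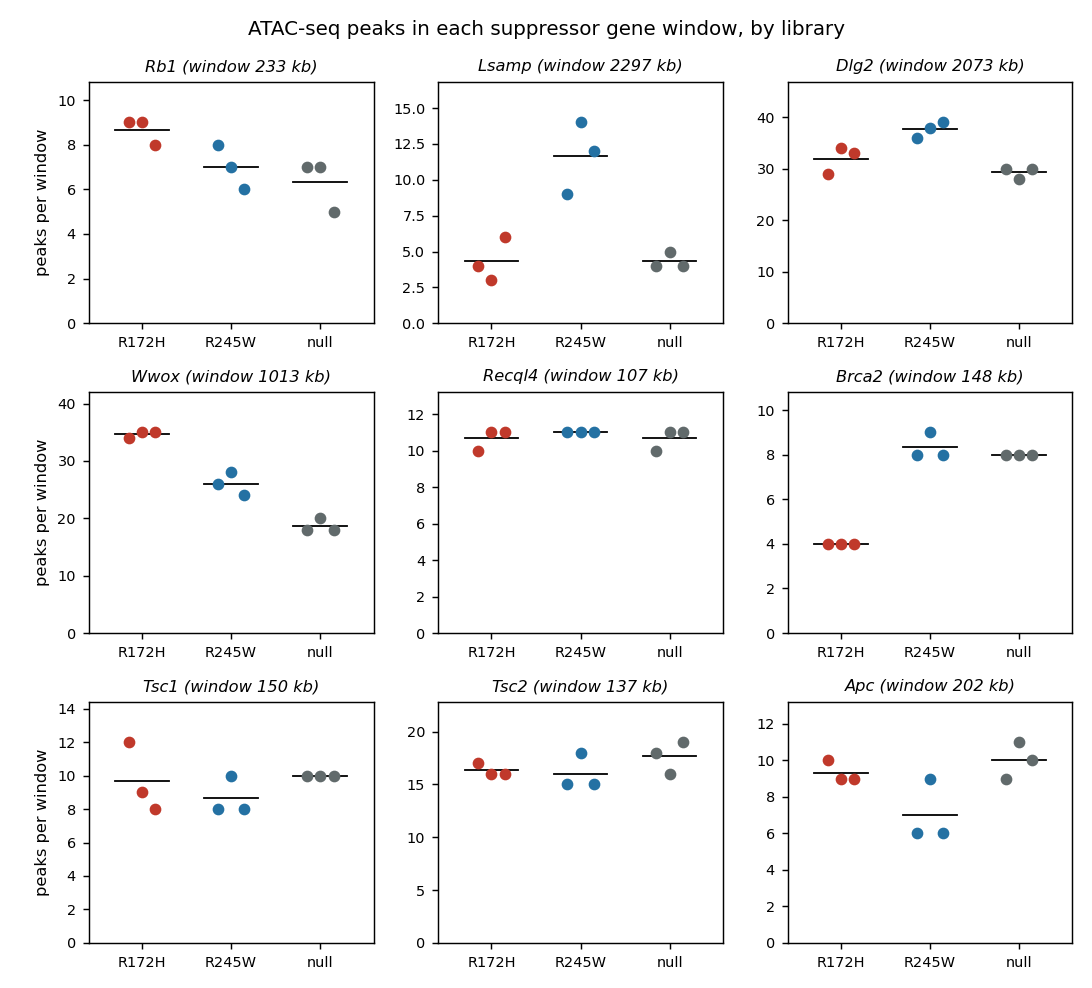
Peaks in each window (vertical axis) for the 9 loci, 1 point per library and a bar for the line mean. The Wwox libraries form 3 separate groups, the R245W libraries lie highest at Dlg2 and Lsamp, and the 3 R172H libraries lie at 4 peaks at Brca2, below all others.

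Pairs of lines were compared by whether their libraries overlapped, because 3 against 3 libraries cannot give an exact permutation p below 0.1. All R172H libraries had more peaks than all null libraries at 2 of the 9 loci, Rb1 and Wwox, against 28.5% of all windows. All R245W libraries lay above all null libraries at 3, Lsamp, Dlg2 and Wwox, against 33.3%. All R245W libraries lay above all R172H libraries at 3, Lsamp, Dlg2 and Brca2, against 27.4%. In the opposite directions, null lay above R172H at 1 (Brca2, background 16.6%), R172H above R245W at 1 (Wwox, 15.5%) and null above R245W at 0 (7.51%). These shares were near the backgrounds.

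The 221 regions were divided among the lines much as regions elsewhere. All 9 libraries shared 57 (25.8%, against 29.4% of all merged regions). The 3 R172H libraries alone had 27 (12.2% against 9.83%), the 3 R245W libraries alone 18 (8.14% against 5.79%) and the 3 null libraries alone 5 (2.26% against 2.74%). Regions called throughout R172H and R245W, with none in the null line, numbered 6 (2.71% against 3.04%), those in the R245W and null lines 13 (5.88% against 6.21%), and those in the R172H and null lines 1 (0.452% against 0.858%). The other 94 (42.5% against 42.2%) were called in only some libraries of a line. By pair, 34 of the 221 regions (15.4%) were called in all R172H and no null libraries, against 14.5% of all regions, and 21 (9.5%) the other way, against 10.3%. For R245W and null these were 27 (12.2%, against 10.0%) and 8 (3.62%, against 4.03%). For R172H and R245W they were 33 (14.9%, against 11.5%) and 33 (14.9%, against 13.8%). As the plot of region patterns shows, 14 of the 27 R172H regions lay at Wwox and 7 at Dlg2. All but 1 of the 18 R245W regions lay at Wwox, Dlg2 and Lsamp. These 3 loci held 54, 61 and 14 of the 221 regions, so counts there follow in part from the number of regions. The R172H part was 25.9% at Wwox and 11.5% at Dlg2, against 15.9% in windows of genes of 500 kb or more. The R245W part was 11.1% at Wwox, 9.84% at Dlg2 and 35.7% at Lsamp, against 8.64% in those windows.

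**Figure D2:**
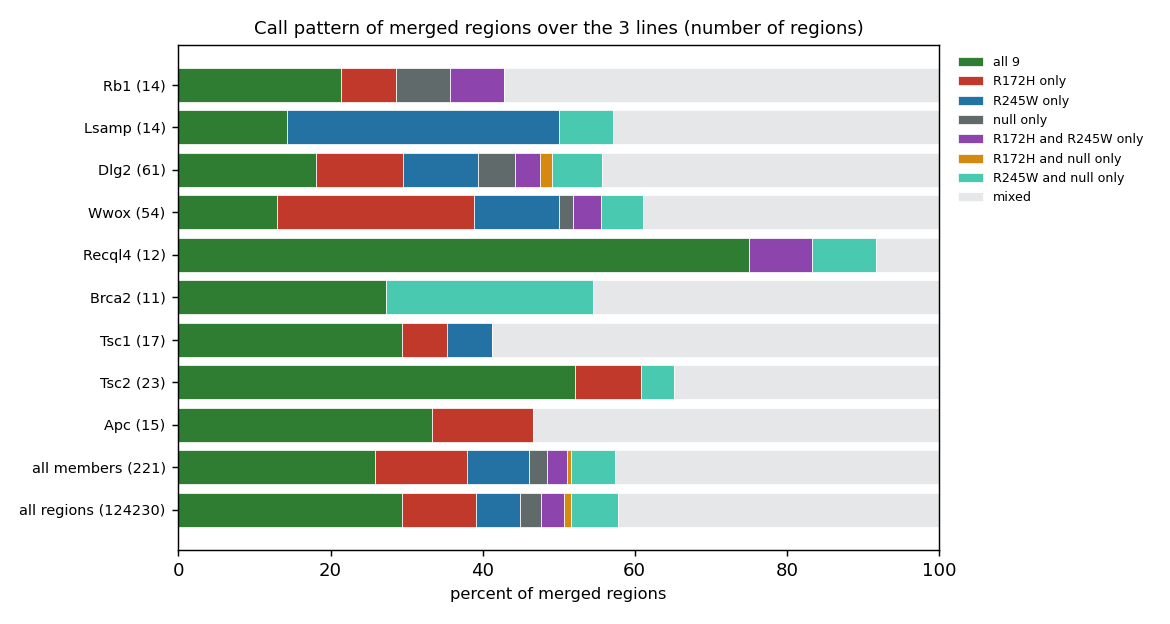
Percent of the merged regions of each window (horizontal axis) by the libraries that called them, with all 124230 regions for comparison. Recql4 has the largest part called in all 9 libraries (75%), Lsamp the largest part in the R245W line only (35.7%), Wwox the largest part in the R172H line only (25.9%) and Brca2 the largest part in the R245W and null lines only (27.3%).

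For 8 of the 9 genes, 1 end of the gene span was open in all 9 libraries, with a peak within 1000 bp. Over all protein-coding genes 55.0% had such an end, and 30.5% of all gene ends were open in every library. Lsamp had neither end open in any library. The peaks at these ends ranked high within their lists by the authors' -log10 q-value, which is given here as a percentile of the list. It is the authors' value for each peak, and ranks from lists of different lengths show no change between libraries. The percentile ran from 91.6 to 97.2 at Rb1, from 93.0 to 99.2 at Wwox and from 94.3 to 97.1 at Dlg2. It ran from 80.9 to 89.4 at Brca2 and from 81.4 to 91.5 at Tsc1. At Recql4, Tsc2 and Apc it was 90.5 to 96.3, 91.1 to 96.2 and 88.6 to 93.7. The ends of Recql4, Tsc2 and Dlg2 lie within 2000 bp of an end of Lrrc14, Nthl1 and Tmem126b, so those peaks may belong to either gene.

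Rb1, the retinoblastoma protein that holds cells before DNA synthesis, lies at chr14:73192858-73325951 (GRCm38) and spans 133 kb. Its window had 9, 9 and 8 peaks in the R172H libraries, 8, 7 and 6 in the R245W libraries and 7, 7 and 5 in the null libraries. R172H lay above null without overlap and R245W overlapped both (exact permutation p = 0.0929, adjusted p = 0.151). With 100 kb either side of the gene the direction turned, with a difference of -1.67 peaks between the R172H and null means. The spread of the 3 line means was called there (exact permutation adjusted p = 0.0416, when 31.6% of all windows passed). That test does not compare R172H with null alone. The peaks covered 6.97 ± 0.207 kb, 6.05 ± 0.299 kb and 6.57 ± 0.521 kb (SD, n = 3 each), so the R172H and null lines were close by covered length.

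Of 14 Rb1 regions, 3 were called in all 9 libraries. One was the upper end of the gene, one held Lpar6, a receptor gene nested within the Rb1 span (chr14:73237531-73239692), and one lay at the lower edge of the window. A region at chr14:73226977-73227475 was called in the 3 R172H libraries only, at percentiles from 37.8 to 47.9. A region at chr14:73234588-73235076 was called in both mutant lines and in no null library, at percentiles up to 31.6. One more, at chr14:73369001-73369753 and 43.4 kb beyond the upper end, was called in the null line only, from 36 to 40.8. All 3 ranked below the middle of their lists, unlike the peak at the gene end.

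Recql4, a RecQ helicase mutated in Rothmund-Thomson syndrome, lies at chr15:76703553-76710616 and spans 7.06 kb in a gene-dense stretch. Its window had 10, 11 and 11 peaks in the R172H libraries, 11, 11 and 11 in the R245W libraries and 10, 11 and 11 in the null libraries. By number of peaks the lines overlapped (exact permutation p = 1.0). By covered length R245W, with 12.1, 12.2 and 12.2 kb, lay above R172H, with 11, 11.6 and 11.3 kb, and null, with 10.5, 11.1 and 10.6 kb, and the window was called on that scale (exact permutation adjusted p = 0.0169), as were 76.6% of all windows. Of its 12 regions 9 were called in all 9 libraries, 75% against 29.4% of all regions, and 1 region lay within the gene span itself. The 2 regions that differed between lines lay outside the gene span. The first, chr15:76715093-76716199, at ends of Lrrc14 and Lrrc24, was called in all R172H libraries (percentiles 89.7 to 91.5) and all R245W libraries (65.2 to 68.6) and in no null library. The second, chr15:76678461-76679784, lay 24.4 kb below Recql4 with no gene end within 1000 bp. It was called in all R245W and null libraries and in no R172H library.

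Brca2, which acts in homologous recombination at broken DNA, lies at chr5:150522297-150570147 and spans 47.9 kb. Its window had 4, 4 and 4 peaks in the R172H libraries, 8, 9 and 8 in the R245W libraries and 8, 8 and 8 in the null libraries. The R172H libraries were the lowest without overlap, at 0.5 times the null mean, while the other lines were alike. For the spread of the 3 line means the exact permutation p was 0.0357 (adjusted p = 0.0715). Covered length was 3.83 ± 0.149 kb in the R172H line, 6.75 ± 0.627 kb in the R245W line and 6.32 ± 0.177 kb in the null line (SD, n = 3 each). Chromosome 5 as a whole had more peaks in the R172H line than in the null line (1.13-fold by the means), so the Brca2 window went the other way from its chromosome.

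The 3 regions called in all R245W and null libraries and in no R172H library lay beyond the upper end of Brca2. Others without an R172H peak, such as chr5:150495831-150496291 below the gene, were called in fewer R245W and null libraries. In the gene span alone each of the line means was equal, with 1 merged region. The lower end, with the promoter sequence printed above, was open in all 9 libraries. The upper end, 1 of 18 gene ends of the 9 loci and the only one that differed between lines, was open in all R245W libraries (percentiles 81.8 to 85.7) and all null libraries (72.5 to 77.8) and in no R172H library. Among all gene ends, 2.36% were open in R245W and not in R172H, and 1.28% in null and not in R172H. That end also lies beside the lower end of N4bp2l1, so the peak (chr5:150570317-150571324) may belong to either gene.

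Further regions with the same pattern lay at chr5:150583445-150584214 and chr5:150611285-150612301. The first ranked low in the R245W libraries (12.9 to 20.5) and mid-list in the null libraries (56.4 to 64.0). The second ranked from 71.6 to 77.4 in R245W and from 51.9 to 63.3 in null. The 3 regions were 27.3% of the 11 Brca2 regions, against 6.21% of all regions and 5.56% of those on chromosome 5. Between them, regions at chr5:150577892-150579630 and chr5:150593517-150595266 were called in all 9 libraries, with R172H percentiles of 67.8 to 71.2 and 79.9 to 83.2.

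**Figure D3:**
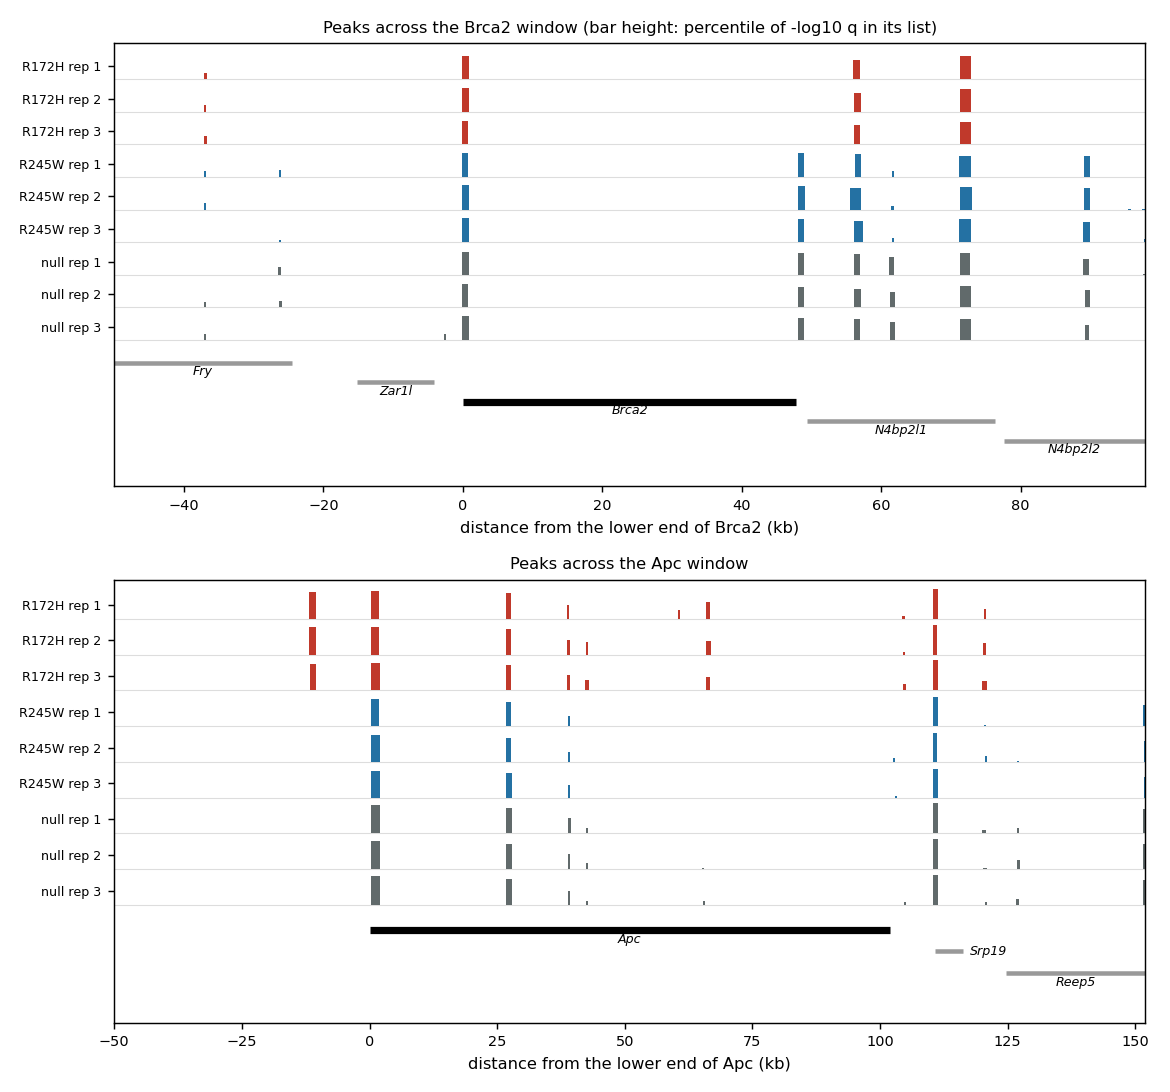
Peaks of the 9 libraries across the Brca2 and Apc windows, by distance from the lower end of the gene (horizontal axis, kb); bar height is the percentile of the peak within its list. Beyond the upper end of Brca2, 3 regions called in all R245W and null libraries are missing from the R172H libraries. The peaks between them are present. At Apc 1 high-ranking region below the gene is present in the R172H libraries only.

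Tsc1 and Tsc2 encode hamartin and tuberin, partners in the complex that restrains mTOR. Tsc1 lies at chr2:28640993-28691172 and spans 50.2 kb. Its window had 12, 9 and 8 peaks in the R172H libraries, 8, 10 and 8 in the R245W libraries and 10, 10 and 10 in the null libraries. The lines overlapped (exact permutation p = 0.571, adjusted p = 0.651). By covered length the null libraries lay narrowly below all others, with 7.37, 6.94 and 6.82 kb. The others had 7.44 to 8.63 kb in R172H and 7.42 to 9.05 kb in R245W. The window was not called on that scale (exact permutation adjusted p = 0.157), although 76.6% of all windows were. A region at chr2:28653349-28654580, within the gene span, was called in the R245W line only, at percentiles from 25.3 to 32. A region at chr2:28597833-28599241, 42.5 kb below the gene, was called in the R172H line only, from 14.5 to 31.4. Both ranked in the lower part of their lists.

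Tsc2 lies at chr17:24595816-24632676 and spans 36.9 kb. Its window had 17, 16 and 16 peaks in the R172H libraries, 15, 18 and 15 in the R245W libraries and 18, 16 and 19 in the null libraries. All lines overlapped (exact permutation p = 0.475, adjusted p = 0.555), and they overlapped by covered length too. Of 23 regions 12 were called in all 9 libraries (52.2% against 29.4%), among them the upper end shared with the DNA glycosylase gene Nthl1. Within the span, chr17:24604064-24605741 was called in all R245W libraries (31.4 to 43.7) and all null libraries (49.7 to 53.4) and in no R172H library. The 2 regions called in the R172H line only, chr17:24600283-24601150 and chr17:24644304-24644735, ranked between 1.15 and 15.3, near the bottom of the lists.

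Apc, the scaffold that helps destroy beta-catenin, lies at chr18:34220297-34322190 and spans 102 kb. Its window had 10, 9 and 9 peaks in the R172H libraries, 6, 9 and 6 in the R245W libraries and 9, 11 and 10 in the null libraries. R245W held the lowest counts, and its replicate 2 reached the range of both other lines (exact permutation p = 0.1, adjusted p = 0.16). By covered length R245W lay below both other lines without overlap, with 4.69, 5.51 and 4.9 kb, against 7.13 to 8.38 kb in R172H and 6.49 to 7.38 kb in null. The window was called on that scale, as were 76.6% of all windows. A region at chr18:34208518-34209852, 11.1 kb below the lower end, was called in the R172H line only and ranked from 87.5 to 89.7, close to the 90.0 to 92.7 of the R172H peaks at the gene end. Another region of the R172H line only lay within the span, at chr18:34286117-34287200, with percentiles from 43.3 to 54.0.

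Wwox, an oxidoreductase that spans a common fragile site, lies at chr8:114439635-115352712 and spans 913 kb. Its window had 34, 35 and 35 peaks in the R172H libraries, 26, 28 and 24 in the R245W libraries and 18, 20 and 18 in the null libraries. The 3 lines did not overlap at all, with 34.7 ± 0.577, 26 ± 2.0 and 18.7 ± 1.15 peaks (SD, n = 3 each). The R172H mean was 1.86 times the null mean. The spread of the 3 line means was called (exact permutation p = 0.00357, adjusted p = 0.0353). The call was lost when any 1 of the R245W or null libraries was left out, when no window of the genome passed. Over all 9 omissions the exact permutation adjusted p ran from 0.0435 to 0.0956. The call was also lost with peaks counted in the gene span alone (exact permutation adjusted p = 0.0699), when 0.0% of all windows passed. Covered length had the same order, with means of 25.1, 18 and 12.7 kb.

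Peaks on chromosome 8 as a whole followed the same order and moved less. The R172H libraries had 4331 ± 64.2 peaks there, the R245W libraries 4037 ± 94.1 and the null libraries 3202 ± 19.6 (SD, n = 3 each), 1.35-fold between R172H and null. The Wwox window took 0.8% of the chromosome 8 peaks in the R172H line, 0.644% in the R245W line and 0.583% in the null line. With counts scaled to the chromosome, an alternative chosen after seeing the data, Wwox was called with an exact permutation adjusted p of 0.0267. On that scale 43.2% of all windows were called.

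Of the 54 Wwox regions 14 were called in the R172H line only, 25.9% against 9.83% of all regions, 12.1% on chromosome 8 and 15.9% in the windows of 227 genes of 500 kb or more. They lay along the whole gene, from 80.9 to 871 kb above its lower end. The highest-ranking were chr8:114670577-114671803 (percentiles 85.6 to 88.7), chr8:115310301-115311529 (80.2 to 86.7) and chr8:115109046-115109982 (74.6 to 75.8). The R245W line alone had 6 regions (11.1%), all at percentiles of 52.1 or lower. The null line alone had 1, chr8:115276112-115276604, which ranked from 71.4 to 76.0.

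Other Wwox regions stood in every library, 7 of the 54. The lower end (chr8:114439220-114440719) was open in all 9, at 93.0 to 99.2. A region 895 kb into the gene, chr8:115333583-115335647, was also called in all 9, at 97.1 to 97.9 in R172H, 83.9 to 85.6 in R245W and 83.3 to 86.5 in null. Beside it, chr8:115326489-115327794 ranked as high in the R172H libraries (96.4 to 97.2) but was called in no R245W library and in null replicate 2 alone, at 18.8.

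**Figure D4:**
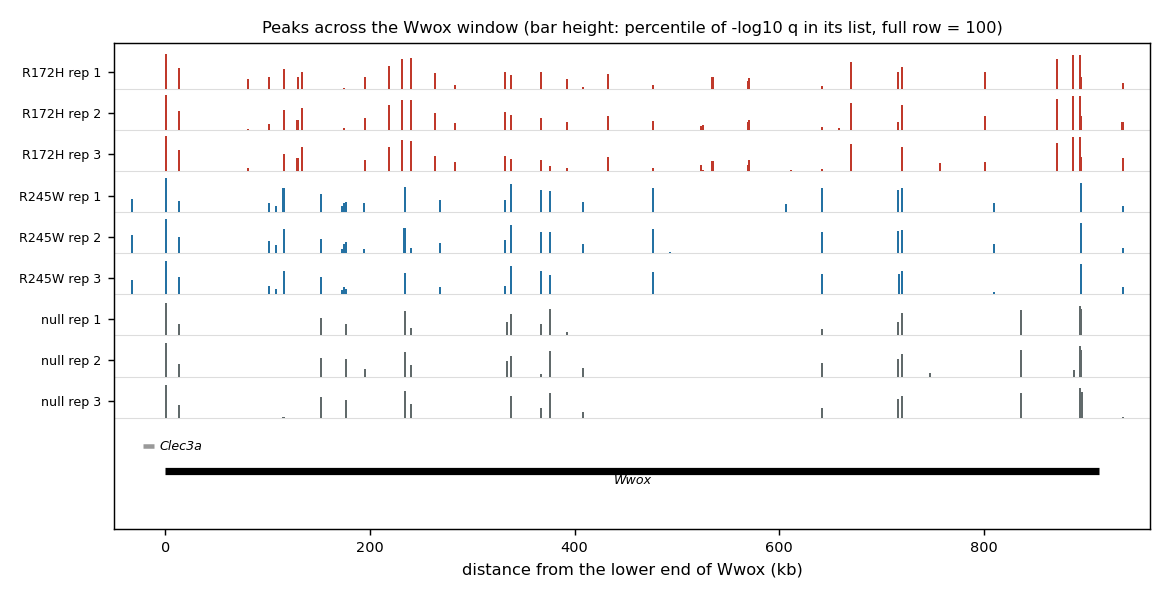
Peaks of the 9 libraries across the Wwox window, by distance from the lower end of the gene (horizontal axis, kb); bar height is the percentile of the peak within its list. The R172H libraries hold the most peaks and the null libraries the fewest, with a stretch of 233 kb without null peaks in the middle of the gene.

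Dlg2, a scaffold of the discs large family, lies at chr7:90476188-92449246 and spans 1973 kb. Its window had 29, 34 and 33 peaks in the R172H libraries, 36, 38 and 39 in the R245W libraries and 30, 28 and 30 in the null libraries. R245W lay above both other lines without overlap (exact permutation p = 0.0107, adjusted p = 0.058), short of the threshold. Covered length had means of 21.8, 26.3 and 18.7 kb in R172H, R245W and null.

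The R245W peaks differed in place as well as in number. Between the open lower end and the next region called in all 9 libraries, chr7:90476929-91431836, lay 955 kb with 8 merged regions. The R172H libraries had 0, 0 and 1 of them, the R245W libraries 5, 8 and 7 and the null libraries 1, 0 and 1. This interval was picked after its values were seen. It includes the internal promoter printed above, whose peak (chr7:91090794-91091677) begins 8 bp after the start site, ranked from 24.5 to 30.7 and was called in all R245W libraries and in no other. The first 410 kb of it (chr7:90476929-90887080) held no peak in any library.

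Further along Dlg2 each line had regions of its own. The 61 regions included 7 of the R172H line only (11.5%), 6 of the R245W line only (9.84%) and 3 of the null line only (4.92%). The highest-ranking were chr7:91940796-91941571 in R172H (65.8 to 69.9), chr7:92186223-92186976 in R245W (63.8 to 70.0) and chr7:90426100-90427069 in null (82.2 to 85.3). The null region lies 49.6 kb below Dlg2 at the lower end of Ccdc89, and within the gene the highest-ranking region of the null line only was chr7:91724385-91725208 (61.7 to 67.7). Over all regions these shares were 9.83%, 5.79% and 2.74%, in windows of genes of 500 kb or more 15.9%, 8.64% and 3.2%, and on chromosome 7 they were 7.94%, 3.58% and 5.37%.

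Lsamp, a GPI-anchored adhesion protein of the IgLON family, lies at chr16:39984254-42181679 and spans 2197 kb. Its window had 4, 3 and 6 peaks in the R172H libraries, 9, 14 and 12 in the R245W libraries and 4, 5 and 4 in the null libraries. R245W lay above both other lines without overlap, at 2.69 times the null mean. For the spread of the 3 line means the exact permutation p was 0.0357 (adjusted p = 0.0715). Covered length was 2.52, 7.65 and 2.8 kb in R172H, R245W and null. The locus was sparse in all lines, with 0.295 peaks per 100 kb, against a median of 0.906 for genes of 500 kb or more and 4.94 for all windows.

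Lsamp had 14 regions, of which 5 were called in the R245W line only, 35.7% against 5.79% of all regions, 7.27% on chromosome 16 and 8.64% in windows of genes of 500 kb or more. The highest-ranking was chr16:40601296-40602417, at 74.6 to 77.2, and chr16:40639609-40640691 lay beside it, at 32 to 39.3. The other 3 lay within 100 kb of the upper end, at chr16:42097425-42097954, chr16:42149603-42150127 and chr16:42152514-42153184, with percentiles from 18.9 to 46.2. Of the 14 regions 8 lay within 100 kb of the upper end. Among these, chr16:42189137-42190946, centred 8.36 kb above the gene, was called in all 9 libraries at 86.6 to 94.9. A tract of 839 kb within the gene, chr16:41258758-42097424, had no peak in any library.

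**Figure D5:**
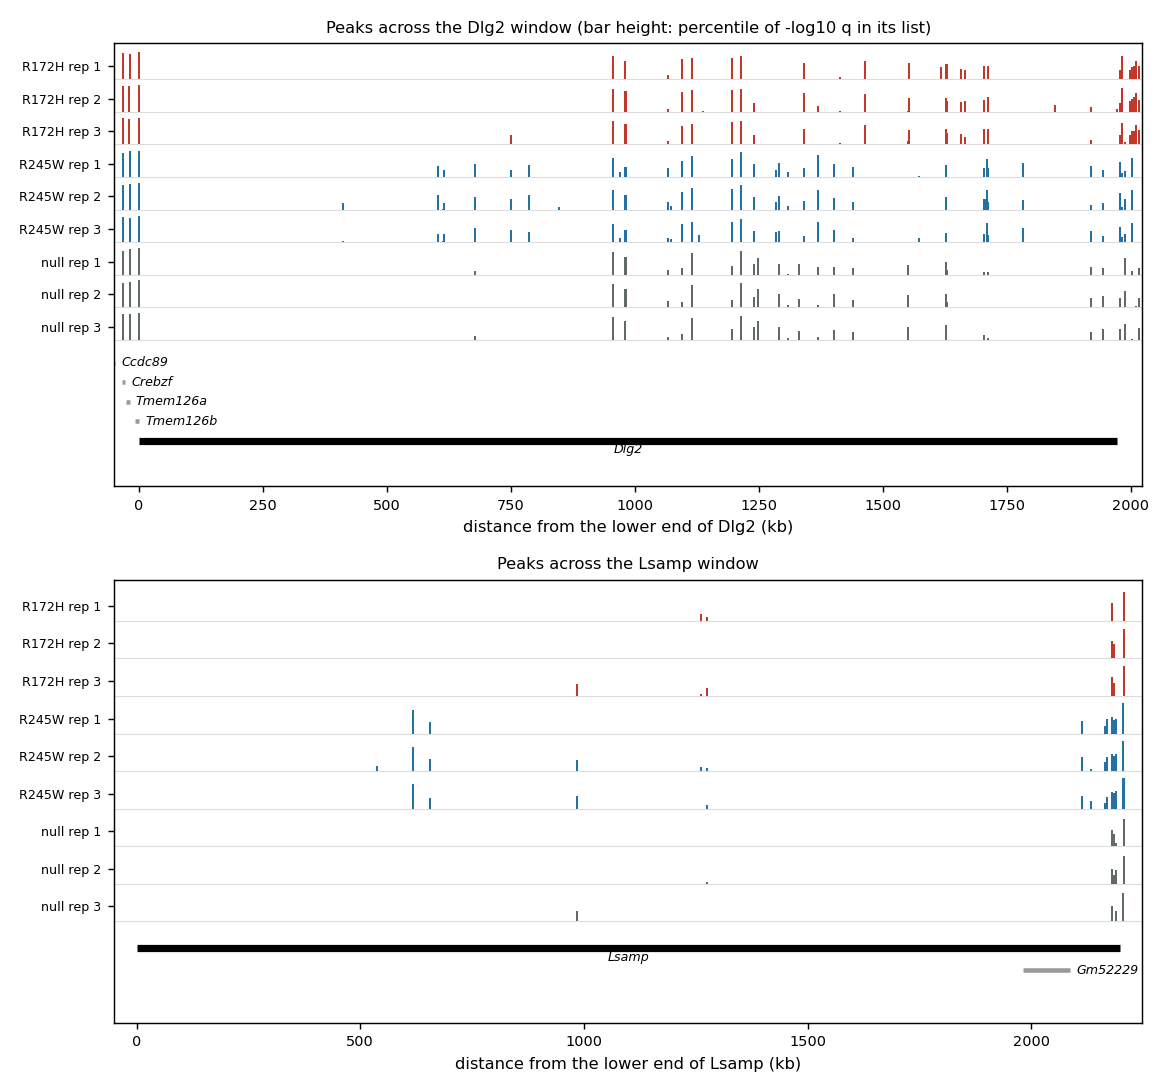
Peaks of the 9 libraries across the Dlg2 and Lsamp windows, by distance from the lower end of the gene (horizontal axis, kb); bar height is the percentile of the peak within its list. The R245W libraries have 5 to 8 peaks in the first 955 kb of Dlg2, where the R172H and null libraries have at most 1, and further peaks in several places along Lsamp, where R172H and null libraries have 3 to 6 peaks.

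Stretches without peaks in 1 line only were sought as intervals between neighbouring peaks of that line in which each library of the other lines had at least 3 peak summits. None of the 9 windows held one, against 2.6% of all windows and 20.3% of windows of genes of 500 kb or more. When at least 2 summits were asked for, 2 windows held one, against 10.9% and 45.8%. The first was in Wwox, chr8:114680292-114773533, 93.2 kb without a null peak, where each R172H library had 3 summits and each R245W library 2. The second was in Dlg2, chr7:91716176-91817855, 102 kb without an R172H peak, where the R245W libraries had 3, 3 and 2 summits and the null libraries 4, 4 and 4. At the minimum of 3 summits, 1 window held a stretch when R245W replicate 3 was left out (Dlg2) or null replicate 3 (Wwox).

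With at least 1 summit in each other library, intervals were found at 8 of the 9 loci and at Tsc1 in none. That rule was met by 58.0% of all windows and 85.5% of windows of genes of 500 kb or more. The longest was in Wwox, chr8:114848027-115081401, 233 kb without a null peak, with 5, 6 and 8 summits in the R172H libraries and 2, 2 and 1 in the R245W libraries. At Rb1, 93.5 kb below and within the gene (chr14:73144082-73237630) held no null peak, against 3, 3 and 2 summits in R172H and 2, 1 and 2 in R245W. The 3 Brca2 intervals, of 55.0, 25 and 14.2 kb, were all without R172H peaks. In the first of them, 47.1 kb (chr5:150523202-150570316) held no peak in any library. At Apc the interval was without R245W peaks (chr18:34259585-34322908, 63.3 kb), and the longest Dlg2 interval was too (chr7:91917087-92048821, 132 kb). Intervals with so few summits in the other lines rest on 1 or 2 regions each in at least 1 library, and copy number and closed chromatin cannot be told apart from the lists.

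Genes that work with these loci were counted by the same tests, beside the background of 10.1% of windows called and 53% at an unadjusted p under 0.05. By unadjusted p, 2 lists were above that second share. They were the IgLON and DLG families (7 of 8 genes) and the long genes at common fragile sites (10 of 10). The share is taken over all windows, and only 227 of the 21887 genes span 500 kb or more. The other lists were not above that share. Of 12 RB pathway genes 0 were called and 3 had an unadjusted p under 0.05. Among them Ccnd2, a D-type cyclin, and E2f3, an RB-bound transcription factor, had unadjusted exact permutation p of 0.0321 and 0.0357. Of 10 homologous recombination and RecQ helicase genes 0 were called and 5 had an unadjusted p under 0.05, the lowest being Brca1 and Recql5 (unadjusted exact permutation p = 0.0143 for both). Brca1 had 11, 12 and 11 peaks in R172H, 13, 13 and 13 in R245W and 15, 14 and 13 in null, so the R172H libraries were the lowest there. Recql5 went the other way, with line means of 15.3 in R172H, 13.0 in R245W and 13.7 in null. R172H had the highest line mean at 3 of the 10 genes, R245W at 5 and null at 2. Of 8 genes of the APC destruction complex 0 were called and 3 had an unadjusted p under 0.05, with Axin1 and Axin2 lowest (unadjusted exact permutation p = 0.0357 for both).

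Of 12 TSC and mTOR pathway genes 2 were called, Pik3ca and Stk11 (exact permutation adjusted p = 0.0353 for both). Pik3ca, the catalytic subunit of PI3 kinase, had 8, 7 and 9 peaks in R172H, 15, 15 and 15 in R245W and 14, 13 and 13 in null. Stk11, the kinase LKB1, had 21, 22 and 22, then 26, 26 and 26, then 25, 24 and 24. Both were lowest in R172H and highest in R245W, an order that Stk11 lost in the gene span alone and with counts scaled to the chromosome. Of 8 IgLON and DLG family genes 1 was called, Opcml, a relative of Lsamp, with 20, 26 and 22 peaks in R172H, 10, 11 and 10 in R245W and 2, 1 and 1 in null. The order at Opcml was that of Wwox and not that of Lsamp. Of 8 other suppressor genes altered in osteosarcoma 1 was called, Fbxw7, a ubiquitin ligase subunit, with 6, 5 and 7, 11, 11 and 10, and 9, 9 and 9 peaks.

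Of 10 long genes at common fragile sites 5 were called. Ctnna3, Macrod2, Cntnap2 and Fhit are named here (exact permutation adjusted p = 0.0353 each). Fhit, a hydrolase gene at another common fragile site, had 3, 2 and 1 peaks in R172H, 4, 5 and 4 in R245W and 0, 0 and 0 in null. Ctnna3 had 18, 22 and 20 in R172H, 32, 31 and 32 in R245W and 10, 11 and 11 in null. Macrod2 was lowest in R245W instead, with 17, 18 and 16 peaks, against 31, 34 and 31 in R172H and 24, 25 and 24 in null. The highest line mean was R245W at 7 of the 10 genes, R172H at 3 and null at 0. The R245W lists were the longest and the null lists the shortest, and no share of all windows by highest line is given for any list. The median difference between the highest and lowest line means was 6.33 peaks, against 2.33 over all windows. These are raw counts in genes of 932 to 2390 kb, and most windows are far shorter, so the 2 medians are not on an equal footing.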

How the data were processed

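The authors deposited narrowPeak lists, 1 for each library and without pooling. Per the submitters' processing notes, reads were handled with Bowtie 1.1.2 and MACS2 2.1.0, beside bcl2fastq 2.17, Trimmomatic 0.33 and deepTools, on build GRCm38. The deepTools version, the settings and any shift for the Tn5 cut, which would move peak edges by a few bases, were not given in the sources used here. The deposited values of a peak are a score, its fold ratio to background, and a -log10 p-value and -log10 q-value; the lowest deposited -log10 q was 1.3. Of these, the -log10 q served to rank peaks within a list and to filter them in 1 alternative. A percentile is the position of a peak in its list.

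Peaks that overlapped by 1 bp or more across the 9 lists were merged into regions. Spans came from a RefSeq gene table (GRCm38.p6) without strand or exons, so exonic and intronic positions are not given and both gene ends replaced the planned start sites. An end was open with a peak within 1000 bp. A window was tested when it had a mean of at least 1 peak per library; all 9 loci were. The exact permutation test and its adjusted p (Benjamini-Hochberg) used all 280 partitions of the libraries, and was tested on simulated data. The 9 genes and the related lists were chosen with earlier results of these data known. Some items that the rules name are not reported here. All 9 genes were named, up to 4 genes per related list by the lowest p, and regions that were specific to 1 line of a pair, lay in a stretch, or held a gene end. Alternatives were stricter peaks (-log10 q at or over 5), lists trimmed to the same length, summits with 250 bp either side, scaling by list length, kb covered, other windows, other end distances, the replicate block, calls in 2 of 3 libraries, other minimum summits and leaving out every library in turn. Values were computed with numpy 2.4.6, scipy 1.17.1 and pandas 2.3.3 in Python 3.11.15, and plots made with matplotlib 3.10.9.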

Additional observations from a re-analysis of the deposited data

How the results depend on the processing

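The number of loci called changed with most scales and windows. It stayed at 1 (Wwox) with a -log10 q of at least 5, equal lists, summit windows and no filter. With equal lists, 8 loci and 54.1% of windows had an unadjusted p under 0.05. The number called was 4 with counts scaled by the list (Wwox, Brca2, Tsc2 and Apc) and 6 by kb covered (Lsamp, Dlg2, Wwox, Recql4, Brca2 and Apc). In the gene span alone it was 0, and 0.0% of all windows were called. There 5 loci and 30.7% of windows had an unadjusted p under 0.05. With 100 kb either side the number was 3 (Rb1, Dlg2 and Wwox). Leaving out 1 library gave 0 to 1, with 2 to 5 loci at an unadjusted p under 0.05, as were 41.3% to 43.5% of all windows. Of the alternatives chosen after seeing the data, scaling by chromosome gave 4 (Dlg2, Wwox, Brca2 and Tsc2), when 43.2% of all windows passed. Each line against the other 6 libraries, also chosen after seeing the data, gave 0, 0 and 0 under adjustment. In those tests, at the smallest possible exact permutation p of 0.0119, stood Wwox and Brca2 for R172H and Lsamp and Dlg2 for R245W, as did 18% and 13.3% of windows.

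In the labels, same-numbered libraries shared only a number, and whether they were prepared together is not named there. Their residual correlations ran from -0.00807 to 0.0263 and 0 of 9 were over 0.1. With the replicate block 0 loci were called (1 locus and 15% of windows at an unadjusted p under 0.05), as was 0.0% of all windows.

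Gene ends that differed between lines numbered 2 with a -log10 q of at least 5, 2 with equal lists and 1 to 2 with 1 library left out; with promoter-table start sites, added after seeing the data, 3 sites were open in every library. The number of windows with a stretch was 1 (Wwox) with a -log10 q of at least 5, 2 with at least 2 summits and 0 to 1 with 1 library left out, being 1 without R245W replicate 3 (Dlg2) and without null replicate 3 (Wwox). Regions in null and not in R245W numbered 13 with equal lists, 16 with calls in 2 of 3 libraries and 5 in the gene span alone, and those in null and not in R172H 13 in the gene span alone. With 1 library left out the pairs gave 34 to 37 (R172H not null), 21 to 24 (null not R172H), 27 to 31 (R245W not null), 8 to 11 (null not R245W), 33 to 38 (R172H not R245W) and 33 to 38 (R245W not R172H).

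The difference between the highest and the lowest line mean turned its sign for Recql5 with equal lists (-0.333 peaks) and by kb (-0.746 kb), Recql4 scaled by the list (-0.0282), Tsc1 by kb (-1.26 kb) and with 100 kb either side (-1.67 peaks), Tsc2 by kb (-0.088 kb), Rb1 with 100 kb either side (-1.67 peaks), and Ccnd2 (-0.667) and Stk11 (-0.667) in the gene span alone. Scaled by chromosome it turned for Ccnd2 (-0.0465), Stk11 (-0.201), Btrc (-0.159) and Stag2 (-0.556). The cause was not tested. Read depth is unknown, so a missing peak says only that none was called.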

Other observations

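Runs without peaks in 1 line were also met at long genes counted beside the 9 loci. Within its window Opcml, the relative of Lsamp, had 521 kb without a null peak (chr9:27740716-28261333, GRCm38), with 9 to 15 summits in each library of the other lines. Followed below the window, the run was 847 kb (chr9:27414368-28261333), with 9 to 20 summits. At Macrod2 the run was in the R245W line, 266 kb (chr2:141279728-141545364), with 4 to 7 summits in each library of the other lines. Closed chromatin and lost DNA cannot be told apart here. None of the 9 loci held a run with 3 or more summits in each other library, and 20.3% of genes of 500 kb or more held one.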
